A study of Mus musculus with 2 samples.

Results

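Genes of actin filament assembly and of the proteins that tie filaments to adhesion sites and to the plasma membrane were followed in total RNA from mouse cells. The group holds 47 genes, listed by name and taken from textbook roles, out of 21461 nuclear protein-coding genes with a symbol. The rule lists them by name and uses no measured value, but the list was made with earlier results of these data known. Their levels beside all genes therefore describe these choices. All 47 were matched. The 2 libraries come from primary cells labelled megakaryocyte, the bone marrow cell that sheds platelets, of C57BL/6J male mice of 5 to 6 weeks. Each library was made from 100 ng of RNA after removal of ribosomal RNA, with inserts of 221 to 1000 nucleotides in library 1 and 200 to 1000 in library 2. The labels count them as biological replicates 1 and 2, yet both carry a single donor entry, so their spread may be partly technical. No treatment or allele is named, there is 1 group and no contrast between conditions, and all comparisons lie between genes, between transcripts or between the 2 libraries.

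Actin is held in the cell as a pool of single subunits and as filaments that grow at one end and shrink at the other. Thymosins and profilin bind the single subunits, the Arp2/3 complex starts new branches when WASP or WAVE proteins activate it, formins and Ena/VASP proteins lengthen filaments, and capping protein, gelsolin and cofilin stop or cut them. Filamin, talin, kindlin, vinculin and the ezrin, radixin and moesin proteins connect filaments to integrins and to the membrane, and small GTPases such as Cdc42 and Rac steer the whole. In platelets and their precursors this machinery drives shape change, and in neutrophils and monocytes it drives crawling and phagocytosis.

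The labelled cell type was checked first against its markers. Of 13 megakaryocyte and platelet markers, 11 were under 1 TPM (a share of all transcripts, corrected for length and scaled to a fixed total) in both libraries, and the platelet glycoprotein genes Gp5 and Gp6 had 0 counts in both. The list summed to 9.44 TPM in library 1 and 11.2 in library 2, most of it from the integrin genes Itga2b and Itgb3. All 10 neutrophil markers (sums of 14751 and 13941 TPM) and all 6 monocyte and macrophage markers (6961 and 9221 TPM) reached 1 TPM in each library. The erythroid list summed to 35.0 and 21.6 TPM, the T and NK cell list to 27.3 and 15.0, the B cell list to 3.26 and 4.33, and the endothelial and stromal list to 9.91 and 10.6. Smooth and striated muscle markers summed to 0.10 and 0.06 TPM, with Cnn1, Tagln, Des and Myl9 at 0 counts in both. The libraries therefore carry the label megakaryocyte but little of its marker list, in which only Itga2b (3.26 and 4.89 TPM) and Itgb3 (5.92 and 5.66 TPM) reached 1 TPM in both. The levels below are those of the mixture of cells that was sequenced. In such bulk RNA, fewer cells of a type and less RNA per cell cannot be told apart.

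Every gene of the group was detected. All 47 stood at 1 TPM or more in both libraries, where 42.4% of all nuclear protein-coding genes did. At 10 TPM or more in both there were 45, against 16.9% of all genes, and at 100 TPM or more in both there were 19, against 1.62%. Library 1 had a median over the 47 of 68.4 TPM, library 2 one of 77.9, and the means of both one of 73.1, beside 0.280 TPM over all nuclear protein-coding genes. Counting only complete protein-coding transcripts (those annotated as coding with neither end missing), the median over the 46 genes with annotated transcripts was 62.4 TPM. The group held 4.09% and 4.05% of the TPM of nuclear protein-coding genes. Levels ran from 9.88 to 1883 TPM in library 1 and from 6.89 to 1938 TPM in library 2, and the 5 highest genes made up 53.3% of the group's TPM. Expected counts, the estimated read counts per gene, were between 1360 and 314737 in library 1 and between 1528 and 364717 in library 2.

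**Figure D1:**
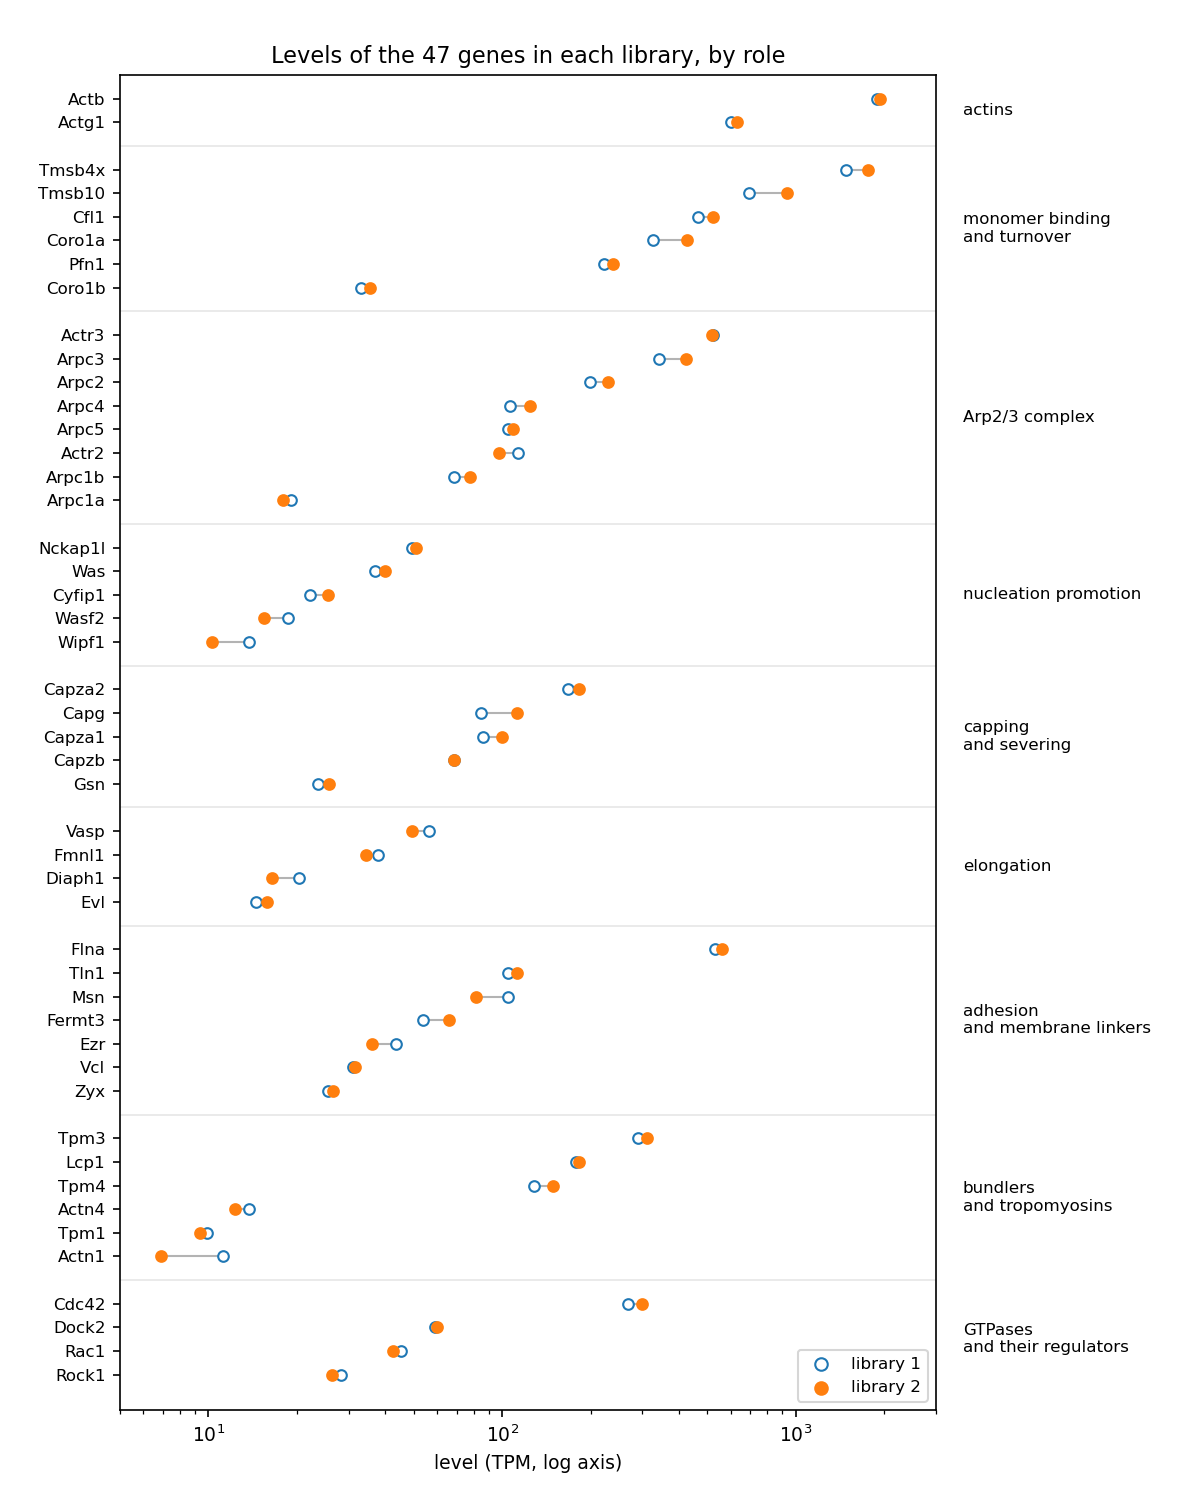
Level of each of the 47 genes in TPM on a log axis, grouped by role; open points are library 1 and filled points library 2, joined by a line. Actb stands highest in both libraries at 1883 and 1938 TPM and Actn1 is at 11.2 and 6.89 TPM.

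In the order of mean levels, 46 neighbouring pairs can be compared, and the ranges of the 2 libraries stayed apart in 20 and overlapped in 26. The first 5 places (Actb, Tmsb4x, Tmsb10, Actg1, Flna) were each apart from the next. In the run of Arpc4, Tln1, Arpc5, Actr2, Capg, Capza1 and Msn each gene overlapped with the next, so these ranges do not separate neighbours there. Genes further apart in the run can still be ordered, such as Arpc4 (106 and 124 TPM) above Capza1 (86.1 and 99.7 TPM). Across the 47 genes the levels of both libraries were close in rank (Spearman's rank correlation 0.995), a description over genes and not over independent samples.

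Of the cytoplasmic actins, Actb had the highest level of the group and Actg1 the fourth. Actb, which encodes beta-actin (gene at chr5:142903115-142906754, minus strand, mm10), was at 1883 and 1938 TPM in libraries 1 and 2. Actg1, which encodes gamma-actin (chr11:120345690-120348542, minus strand), was at 603 and 632 TPM. Actb thus held 75.8% and 75.4% of the sum of both, 3.12 and 3.07 times Actg1. The muscle actins were far lower. Acta1, Actc1 and Actg2 had 0 counts in both libraries, where 3 counts would be 0.0248 TPM for Acta1 in library 1, and Acta2, the smooth muscle actin, was at 1.36 and 1.19 TPM (212 and 209 counts). The start of the coding sequence is shown for the leading transcripts of both actins, 60 of 1125 coding bases, because the proteins are known to differ at this end; capitals mark bases that differ between them.
Actb-201: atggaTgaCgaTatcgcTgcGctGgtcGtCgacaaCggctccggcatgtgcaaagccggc
Actg1-202: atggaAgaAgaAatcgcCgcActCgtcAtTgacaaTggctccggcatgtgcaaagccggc
Over all 1125 positions the coding sequences were 88.6% identical, and 128 bases differed, 9 of them in the stretch shown. Each transcript carried nearly all of its gene, Actb-201 with 97.4% and 96.9% of the gene's TPM and Actg1-202 with 92.9% and 93.7%. Actg1 also has 3 processed pseudogenes that match its transcript at 95% identity or more over at least 200 bases, and together they were assigned counts equal to 1.73% and 1.89% of those of Actg1. Some reads of Actb and Actg1 were split between genes, as their expected counts are not whole numbers.

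Among the proteins that bind actin subunits, the beta-thymosins had levels in the range of the actins. Tmsb4x, thymosin beta 4, which holds actin subunits in reserve (chrX:167207093-167209315, minus strand), was at 1487 and 1759 TPM. Its relative Tmsb10 (chr6:72957347-72958748, minus strand) was at 690.5 and 932 TPM. Tmsb4x exceeded Tmsb10 in both libraries, by 2.15 and 1.89 times. Pfn1, profilin 1, which hands subunits to growing ends, was at 223 and 239 TPM, while its relatives Pfn2 and Pfn4 had 0 counts in both. The summed TPM of Tmsb4x, Tmsb10 and Pfn1 was 0.966 and 1.14 times that of Actb and Actg1, so transcripts for the main subunit binders and for actin were close to parity in both libraries. The whole coding sequences of the 2 thymosins, 132 bases each, are shown because they are the second and the third gene in the order; capitals mark the 40 positions that differ (69.7% identical).
Tmsb4x-201: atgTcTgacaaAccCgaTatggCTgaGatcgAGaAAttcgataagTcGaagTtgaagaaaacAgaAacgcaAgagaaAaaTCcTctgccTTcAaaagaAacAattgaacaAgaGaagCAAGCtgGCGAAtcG
Tmsb10-203: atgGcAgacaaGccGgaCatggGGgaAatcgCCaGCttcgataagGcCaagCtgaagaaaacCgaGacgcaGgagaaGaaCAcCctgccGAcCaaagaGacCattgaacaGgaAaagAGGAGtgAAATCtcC

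Filament turnover genes followed. Cfl1, cofilin 1, which severs old filaments, was at 466 and 521 TPM, with only 1 transcript of the gene in the deposited estimates. It exceeded Dstn (destrin), a related severing gene at 134 and 142 TPM, by 3.48 and 3.66 times, and the muscle-type cofilin Cfl2 (3.43 and 2.80 TPM) by 136 and 186 times. Coro1a, coronin 1A, the coronin known from leukocytes, was at 327 and 426 TPM. It exceeded Coro1b (33.1 and 35.5 TPM) by 9.89 and 12.0 times and Coro1c (35.1 and 39.9 TPM) by 9.33 and 10.7 times. All 6 genes of this role had a higher scaled count in library 2 than in library 1, by 0.03 to 0.32 on the log2 scale, and none was past 1.5-fold. Beside this, 50.0% of all tested genes were higher in library 2, as were 73.8% of genes under 1000 bases with at least 1000 counts on average, a class that takes in Pfn1, Cfl1, Tmsb4x and Tmsb10. For Coro1b the interval of the log2 ratio, -0.03 to 0.08, includes 0.

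The 7 subunits of the Arp2/3 complex, which nucleates branches, are made in equal number in the assembled complex, and their transcript levels were not equal. Actr3, which encodes Arp3, was at 524 and 519.8 TPM, and Actr2, which encodes Arp2, was at 113 and 97.7 TPM. Arpc3 was at 341 and 424 TPM, Arpc2 at 199.6 and 229, Arpc4 at 106 and 124, and Arpc5 at 105 and 109. With the Arpc1a and Arpc1b paralogs summed, the highest of the 7 subunits was 5.99 and 5.42 times the lowest. Arpc1b, the form prominent in blood cells, was at 68.4 and 77.9 TPM and Arpc1a at 19.1 and 17.9 TPM, so that Arpc1b held 78.2% and 81.3% of the pair. Arpc5 stood 10.4 and 7.66 times above Arpc5l (log2 ratio 3.15, and 7.28 from complete coding transcripts, of which Arpc5l had 0.555 and 0.528 TPM), and Actr3b had 2 counts in library 1 and 0 in library 2. Part of the Actr3 level came from transcripts other than complete coding ones, which made up 67.1% ± 4.9 (SD, n = 2) of it. The retained-intron transcript Actr3-204, of 978 bases, took 33.6% and 27.4% of the gene's TPM (it was named after its values were seen), and from complete coding transcripts alone Actr3 was at 333 and 367 TPM. Arpc1b had 69.0% in complete coding transcripts, and the gene Pdap1 on the opposite strand overlaps it with 24.3% and 22.0% as many counts. For Arpc4, transcripts holding 88.6% of the TPM in library 2 had no entry in the annotation used for types, so no coding share was computed.

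The activators of the Arp2/3 complex were lower than the complex itself. The 5 genes of this role had a median of 23.8 TPM, beside 111 TPM for the 8 Arp2/3 genes. Was, the blood-cell WASP, was at 36.9 and 39.9 TPM, 18.1 and 28.1 times its widely expressed relative Wasl. Wipf1, the WASP partner, was at 13.7 and 10.3 TPM, 7.83 and 7.61 times Wipf2. In the WAVE complex, Wasf2 was at 18.7 and 15.5 TPM, while Wasf1 and Wasf3 had 0 counts in both libraries, where 3 counts would be 0.0123 and 0.0145 TPM in library 1. Nckap1l, the blood-cell subunit also called Hem1, was at 49.3 and 51.0 TPM, against 0.200 and 0.220 TPM for Nckap1, a ratio of 246 and 232. The subunit Cyfip1 was at 22.1 and 25.5 TPM and Cyfip2 at 12.4 and 7.75 TPM, with ratios of 1.77 and 3.29. The remaining partners were Abi1 (46.2 and 64.7 TPM), Brk1 (46.0 and 58.1), Abi3 (3.40 and 5.48) and Abi2 (1.99 and 2.59).

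Capping and severing genes lay between 23.6 and 183 TPM. Capping protein is a dimer of 1 alpha and 1 beta subunit; Capza1 was at 86.1 and 99.7 TPM, Capza2 at 167 and 183 TPM, and the beta gene Capzb at 68.4 and 68.8 TPM. The 2 alpha genes together were 3.71 and 4.10 times Capzb. Capza2 exceeded Capza1 in both libraries, and the testis form Capza3 had 0 counts in both. Capg, a capper of the gelsolin family known from macrophages, was at 84.7 and 112 TPM, 3.59 and 4.34 times Gsn (gelsolin, 23.6 and 25.7 TPM). Scin, the gelsolin relative scinderin, was at 0.350 and 0.320 TPM.

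Elongation factors were among the lower genes, with a median of 27.2 TPM. Vasp, which extends filaments at their growing ends and is a classic platelet phosphoprotein, was at 56.5 and 49.4 TPM. Its relative Evl was at 14.5 and 15.8 TPM and Enah at 0.140 and 0.360 TPM. Of the formins, Fmnl1, known from leukocytes, was at 37.8 and 34.4 TPM and Diaph1 (mDia1) at 20.4 and 16.4 TPM. Fmnl1 stood 12.5 and 11.4 times above Fmnl2 (log2 ratio 3.54, and 2.71 from complete coding transcripts) and 9.30 and 11.0 times above Fmnl3, whereas Diaph1 was only 2.26 and 1.77 times Diaph2 and 2.44 and 1.91 times Diaph3.

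Evl was present as a pair of complete coding transcripts. Evl-204, with 1203 coding bases, took 64.3% of the gene's TPM in library 1 and 78.2% in library 2, and Evl-203, with 1197, took 35.6% and 21.7%. Evl-204 holds 63 coding bases that Evl-203 lacks, at chr12:108683348-108683410 (plus strand), and lacks 57 that Evl-203 has. These 63 bases are shown in capitals between their neighbours in the transcript, since they separate the more abundant form from the other.
Evl-204: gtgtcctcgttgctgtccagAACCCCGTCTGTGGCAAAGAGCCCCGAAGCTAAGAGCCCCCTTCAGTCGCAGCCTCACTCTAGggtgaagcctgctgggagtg
The form with these bases led in both libraries, but its lead over Evl-203 was wider in library 2.

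Among adhesion and membrane linkers, Flna had the highest level. Flna encodes filamin A, which crosslinks filaments and binds integrins and the GPIb complex of platelets (chrX:74223461-74249820, minus strand), and it was at 531 and 559 TPM. The others were Tln1 (talin 1, which switches integrins on; 105 and 112 TPM), Msn (moesin; 105 and 81.2), Fermt3 (kindlin 3, the blood-cell kindlin; 53.7 and 65.8), Ezr (ezrin; 43.6 and 36.1), Vcl (vinculin; 31.1 and 31.6) and Zyx (zyxin; 25.6 and 26.5). One paralog dominated in most of these families. Fermt1, Fermt2 and Flnc had 0 counts in both libraries, and Tln2 was at 0.0800 and 0.0900 TPM. In the membrane family all 3 genes were present, Msn above Rdx (radixin, 40.4 and 44.8 TPM) and above Ezr (log2 ratio 1.21, and 1.88 from complete coding transcripts).

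The Flna level rested mostly on a short transcript. Flna-206 has 704 bases in 5 exons (chrX:74227852-74229063), is annotated as a target of nonsense-mediated decay and has a missing end, and it took 55.0% of the TPM of Flna in library 1 and 54.7% in library 2. Of the counts of the gene it took 10.1% and 9.76%. The TPM divides counts by length, so a short transcript weighs more per read. Flna-203, with 8456 bases in 47 exons, took 16.3% and 14.9% of the TPM and 51.6% and 46.6% of the counts, and all but 17 bases of Flna-206 also lie in exons of Flna-203. Those 17 bases, at chrX:74228525-74228541, are shown in capitals after the 30 bases before them, above the corresponding stretch of Flna-203. They end in the triplet tag, and the annotated coding part of Flna-206 stops just before it, at position 74228528.
Flna-206: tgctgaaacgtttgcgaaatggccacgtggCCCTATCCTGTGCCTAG
Flna-203: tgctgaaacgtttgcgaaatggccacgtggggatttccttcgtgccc
Complete coding transcripts held 24.4% and 25.0% of the TPM of Flna and 76.7% and 77.6% of its counts. From these transcripts alone Flna was at 129 and 139.6 TPM, a mean 4.04 times below the gene level, and it moved from place 5 in the order to place 16. Of the 46 genes with annotated transcript types, it was the only one led by a transcript not annotated as protein-coding.

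Most of the group rested on coding transcripts. Over the 46 genes with annotated types, the median share of TPM in protein-coding transcripts was 96.7%, and in complete coding ones 96.4%. These shares were not computed over all genes, so they describe the group only. For 5 genes the deposited estimates hold only 1 transcript, so its type fixed their share. In 32 of the 46, complete coding transcripts held 90% or more, and in 7 they held under 70%: Flna, Fmnl1 (55.4%), Actn4 (57.2%), Ezr (61.5%), Tln1 (62.7%), Actr3 (67.1%) and Arpc1b (69.0%). In Ezr the rest was the 643-base processed transcript Ezr-202, with 46.5% of TPM in library 1 and 30.5% in library 2 but 11.0% and 5.75% of the counts. Actn4-206, a processed transcript of 2581 bases, took 40.4% and 41.9% of the TPM of Actn4 and still 30.4% and 32.8% of its counts, a share that is large on both scales. In Tln1 the incomplete 836-base Tln1-206, named after its values were seen, went from 17.2% to 38.2% of TPM while holding 1.84% and 4.61% of counts. That shift bears on the direction of Tln1 between libraries: its TPM was higher in library 2 (105 and 112), and its scaled count was lower there (log2 ratio -0.17, interval -0.19 to -0.15), as was the TPM of its complete coding transcript (71.2 and 64.3).

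**Figure D2:**
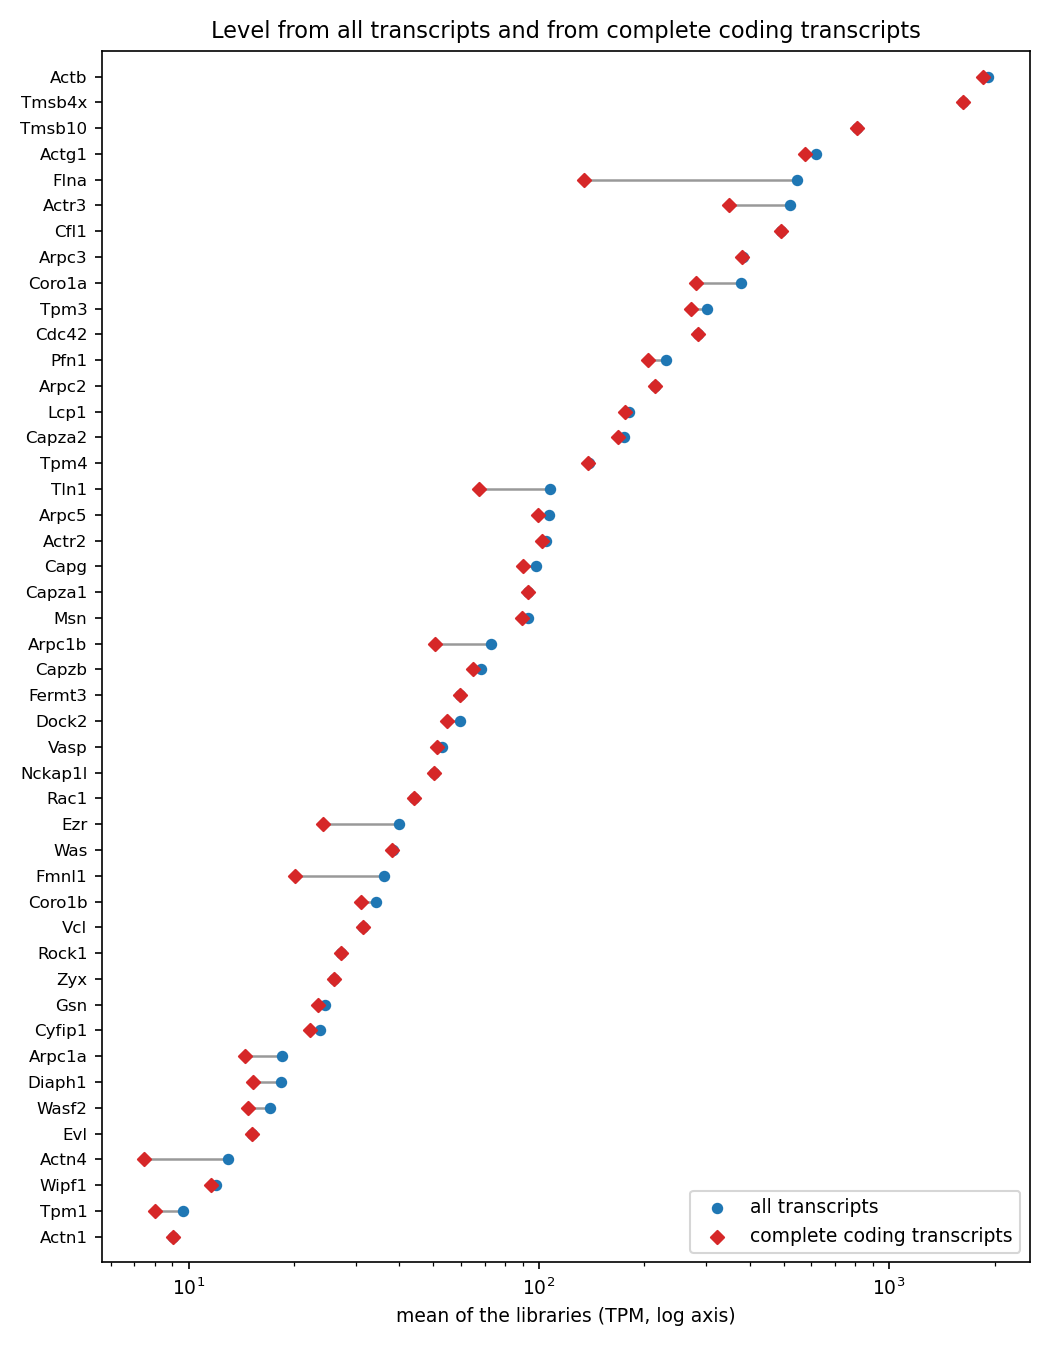
Mean level over both libraries in TPM on a log axis, from all transcripts of a gene (circles) and from complete coding transcripts (diamonds), for the 46 genes with annotated transcript types. Flna lies at 545 TPM by the gene and at 135 TPM by complete coding transcripts, the longest line of the plot.

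**Figure D3:**
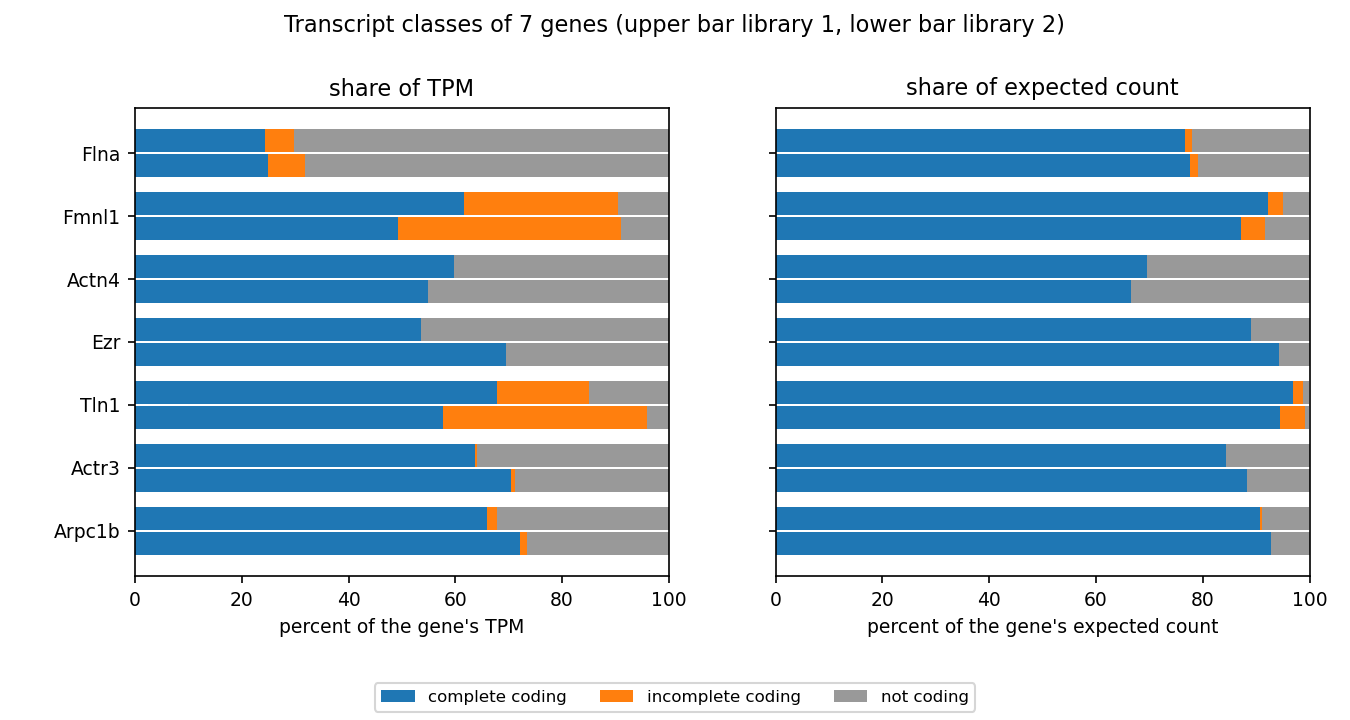
Shares of TPM (left) and of expected counts (right), in percent, by transcript class in the 7 genes under 70% complete coding; the upper bar of each gene is library 1 and the lower is library 2. For Flna the complete coding share is 24.4% and 25.0% of TPM and 76.7% and 77.6% of counts.

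The leading transcript was the same in both libraries for 45 of the 47 genes. The other 2 were Fmnl1 and Tpm1. Among the 45, 5 had only 1 transcript in the deposited estimates, so their agreement was fixed. Agreement over all genes was not computed. For Fmnl1, the complete transcript Fmnl1-202 led in library 1 (47.9% of TPM, then 34.8%), and the incomplete 450-base Fmnl1-205 led in library 2 (28.8%, then 41.8%), with 2.77% and 4.53% of counts. For Tpm1, which encodes a tropomyosin that winds along the filament, Tpm1-211 led in library 1 (35.8% against 29.4%) and Tpm1-212 in library 2 (39.8% against 51.3%). Both are complete, with 744 coding bases each, and their coding parts differ in 1 exon of 76 bases, at chr9:67031951-67032026 in Tpm1-211 and at chr9:67032466-67032541 in Tpm1-212 (minus strand). With 1607 and 1714 bases in all, the transcripts also differ outside the coding part, and which reads set the lead was not tested. The alternative exons are printed because they are where the coding parts differ.
Tpm1-211: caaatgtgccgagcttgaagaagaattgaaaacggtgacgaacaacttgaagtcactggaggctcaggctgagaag
Tpm1-212: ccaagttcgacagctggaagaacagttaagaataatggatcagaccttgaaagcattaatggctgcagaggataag
Tpm1 had 1360 and 1528 counts in all, and neither transcript has a base of exon outside the other annotated transcripts of the gene.

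Tropomyosins and bundlers spanned a wide range. Tpm3 was at 291 and 312 TPM, Tpm4 at 128 and 149.5 and Tpm1 at 9.88 and 9.37, while Tpm2, known from muscle, was at 0.0800 and 0.0300. The leading transcripts Tpm3-201 (82.8% and 85.8% of TPM) and Tpm4-201 (99.7% and 99.8%) also have 744 coding bases, the size of the short tropomyosins of nonmuscle cells. The gene Tpm3-rs7, which matches Tpm3-201 at 99.1%, was assigned 5.46% and 6.30% as many counts as Tpm3. Lcp1, L-plastin, the filament bundler of leukocytes, was at 179 and 183 TPM, 303 and 300.5 times Pls3. Pls1 had 0 and 6 counts. The alpha-actinins were low: Actn4 was at 13.7 and 12.3 TPM and Actn1, the form known from platelets, at 11.2 and 6.89 TPM. Actn4 exceeded Actn1 at the gene level (log2 ratio of Actn1 to Actn4 -0.56 ± 0.38, SD, n = 2). With complete coding transcripts only, the mean log2 ratio changed sign (0.24). Actn1 was then at 11.2 and 6.89 TPM and Actn4 at 8.20 and 6.75 TPM. The 2 genes were nearly level in library 2, so no order is read from these transcripts.

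The GTPases and their regulators were led by Cdc42, which acts upstream of WASP, at 269 and 299 TPM. Rac1, which acts upstream of WAVE, was at 45.2 and 42.5 TPM and the blood-cell form Rac2 at 42.5 and 40.8 TPM. This was the closest pair of all, with a log2 ratio of 0.07 ± 0.02 (SD, n = 2), and by expected counts, which are not divided by length, Rac2 was the higher (log2 ratio -0.35). The gene Daglb overlaps Rac1 on the opposite strand and had 29.4% and 44.8% as many counts. Rac3 had 0 and 15 counts. Dock2, the exchange factor for Rac in leukocytes, was at 59.1 and 59.8 TPM, 12.2 and 12.7 times Dock1, and the kinase Rock1 was at 28.3 and 26.3 TPM, 2.06 and 1.86 times Rock2.

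Arranged as 43 pairs of related genes, of which only some have a blood-cell form first (Rac1 stands before Rac2), the first gene was higher in both libraries in 41. The exceptions were Capza1 with Capza2 and Actn1 with Actn4. In 16 pairs the second gene was under 1 TPM in both libraries, and in 6 it had 0 counts in both (Pfn2, Wasf1, Wasf3, Flnc, Fermt1 and Fermt2). Blood-cell forms stood over their relatives in WASP, Hem1, coronin, kindlin, plastin, Dock and Fmnl pairs, while Rac, Diaph, Rock and the ezrin family were shared between paralogs. The part of each cell type in these levels was not tested. The first and second gene of a pair were assigned before the pairs were counted here but with earlier results of these data known, so the 41 is a description.

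**Figure D4:**
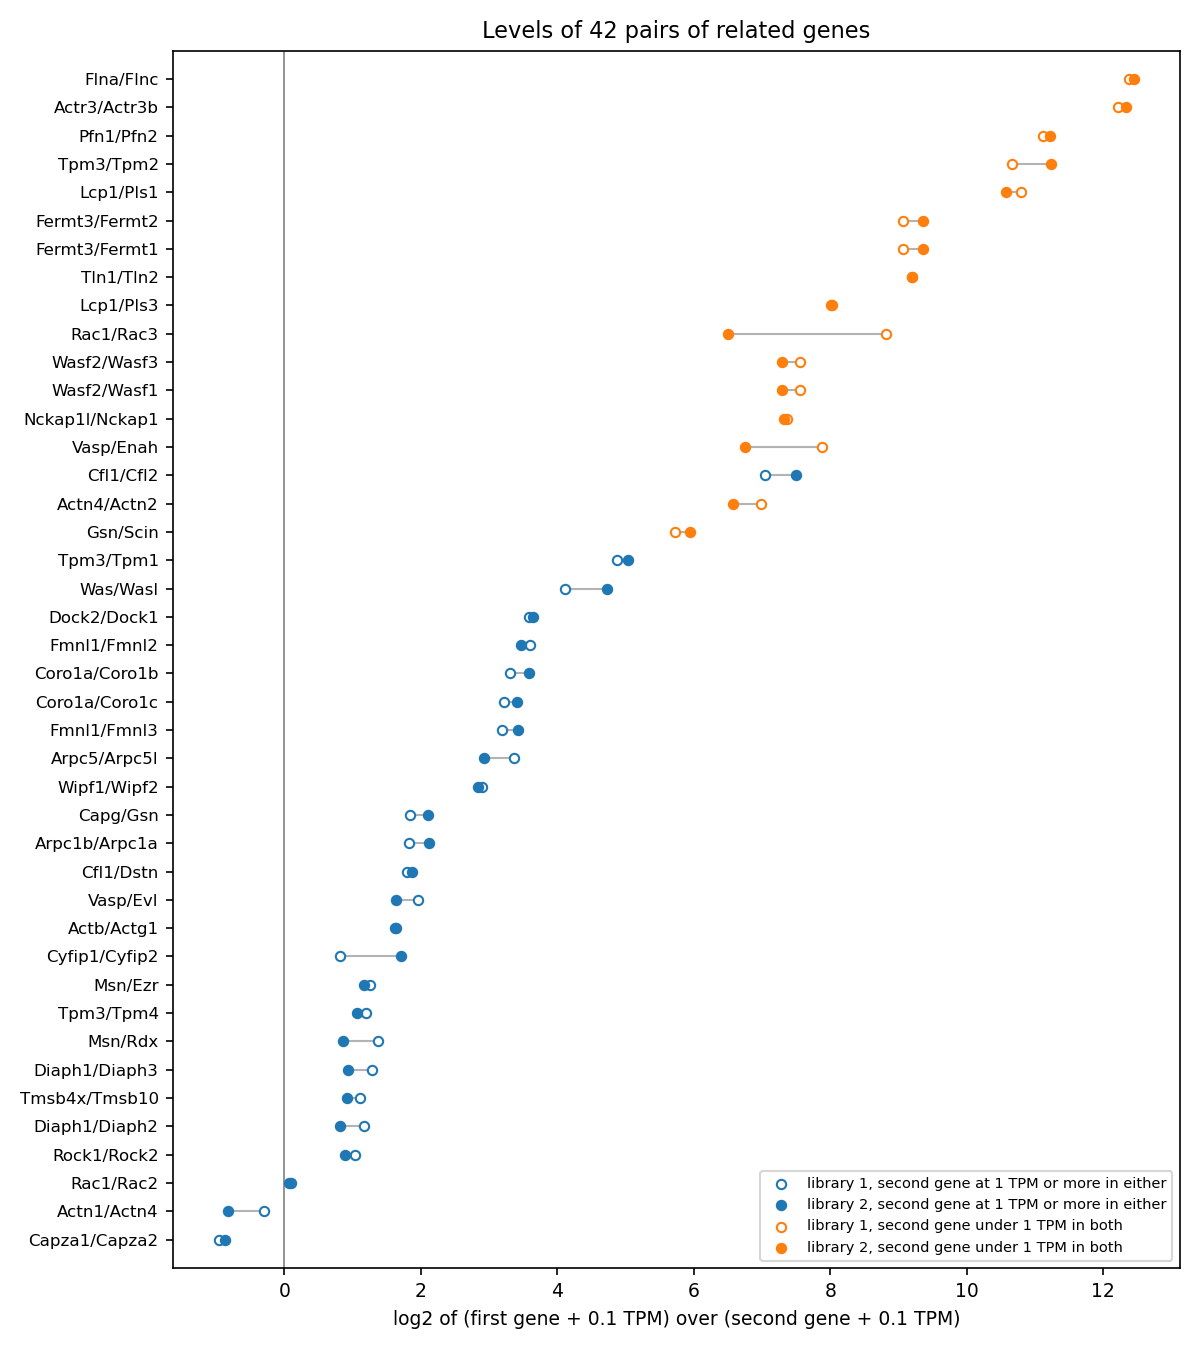
Log2 ratio of the levels of 42 of the 43 pairs of related genes, with 0.1 TPM added to each level; open points are library 1, filled points library 2, and colour marks pairs whose second gene is under 1 TPM in both libraries. Of the pairs shown, 40 lie to the right of 0 and the Capza1/Capza2 and Actn1/Actn4 pairs to the left.

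A wider list of 77 partners and paralogs gives the surroundings of the group. Of these, 53 reached 1 TPM in each library, 32 at 10 or more and 8 at 100 or more, and 11 had 0 counts in both. Their median was 7.57 TPM. The 8 highest were Arhgdib, a GDP-dissociation inhibitor of small GTPases in blood cells (382 and 413 TPM), Gmfg, which removes Arp2/3 branches (208 and 265), the GTPase gene Rhoa (156 and 161), Cap1, which recycles actin subunits (146 and 151), Dstn (134 and 142), the filament-binding gene Cotl1 (119 and 143), Wdr1, a helper of cofilin (102 and 119), and Hcls1, the blood-cell relative of cortactin (105 and 111). The list was written from textbook roles, so its lower median describes these choices.

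Between the libraries the group differed little. After scaling of counts, 1 of the 47 genes was past 1.5-fold, against 17.9% of the 12081 genes averaging at least 10 counts. The lowest mean count of the 47 was 1444, and of the 6349 genes averaging at least 1000 counts only 1.45% were past 1.5-fold, so the share in the group is close to that of genes counted as deeply. The gene was Actn1 (chr12:80167547-80260371, minus strand), which had 3850 counts in library 1 and 2750 in library 2, a log2 ratio of -0.73 with a 95% interval of -0.80 to -0.66. The interval is exact and binomial and covers counting error only, and with 1 library on each side there is no replicate check. None of the 47 was 1.5-fold higher in library 2, where 8.10% of tested genes were, and Actn1 was the one that was 1.5-fold higher in library 1, where 9.80% were. By direction alone, 23 genes were higher in library 2 and 24 in library 1, beside 50.0% of tested genes higher in library 2. The median log2 ratio of TPM over all tested genes was 0.07, and relative to that median 23 of the 47 were again higher there (32 without that correction). The median absolute log2 ratio was 0.12, against 0.13 for genes averaging at least 1000 counts. In the wider list, Enah was past 1.5-fold higher in library 2, and Cyfip2, Apbb1ip, Parvb, Cttn and Actn3 in library 1, among 60 tested. Apbb1ip, Parvb, Cttn and Actn3 are named because they were counted here. Counts were low for Enah (33 and 61, interval 0.01 to 1.30), Cttn (89 and 19) and Actn3 (35 and 5).

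Among deeply counted genes the differences between the libraries moved with transcript length. Over the 47 genes the log2 ratio fell with effective length (Pearson's correlation -0.54 and Spearman's rank correlation -0.54 over genes, which share the 2 libraries and are not replicates), and over the 6349 genes averaging at least 1000 counts these were -0.34 and -0.36. Over all 12081 tested genes they were weaker, at -0.06 and -0.19. All 6 genes of the group under 1000 bases were higher in library 2 (median log2 ratio 0.14), where 73.8% of the 762 such genes with at least 1000 counts on average were. Of the 14 genes of 3000 bases or more, 1 was higher in library 2 (median -0.18), where 35.2% of 2440 genes of that length and count were. Tmsb10, among the shortest, had a log2 ratio of 0.32 (23868 and 35374 counts), and Diaph1 (-0.45), Wipf1 (-0.43), Msn (-0.42) and Actn1 (-0.73) are all of 3000 bases or more. Fmnl1, at -0.45, has a shorter effective length (2375 and 1995 bases). Its complete coding transcripts, among them Fmnl1-202 of 3806 bases and Fmnl1-203 of 3693, held 92.3% and 87.2% of its counts. Flna, with Flna-203 of 8456 bases and effective lengths of 2606 and 2628 bases, had a log2 ratio of 0.03. The part of transcript length in either gene was not tested. The lower bound of the insert range also differs between the libraries in the labels, at 221 and 200 nucleotides, and its part in these differences was not tested. Summed monocyte markers were higher in library 2 (6961 and 9221 TPM) and summed neutrophil, erythroid and T and NK cell markers were lower there. Within the neutrophil list, S100a8 (7266 and 7929 TPM), Elane and Mmp8 were higher in library 2, and the other genes, among them S100a9 (4471 and 3427), were lower. The part of these marker differences was not tested either.

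**Figure D5:**
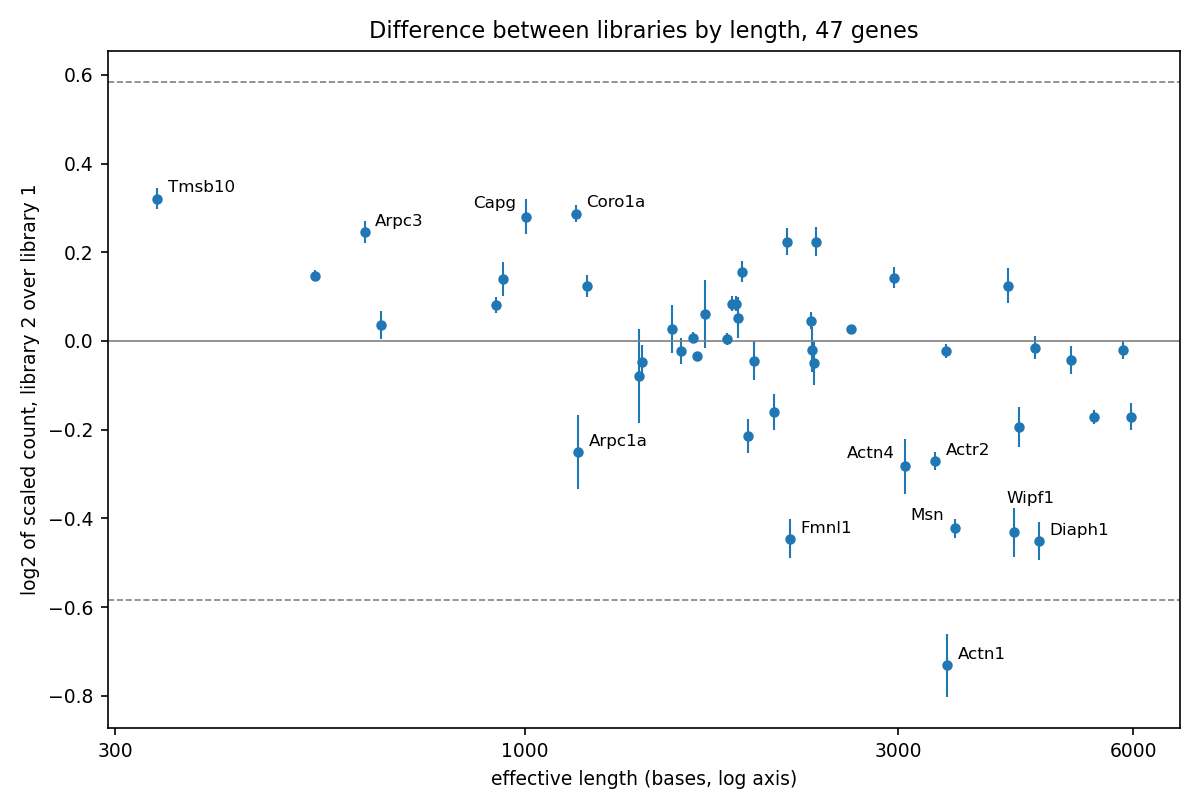
Log2 of the scaled count in library 2 over library 1 against effective length in bases on a log axis, for the 47 genes; bars are 95% exact binomial intervals for counting error and dashed lines mark 1.5-fold. The 6 genes under 1000 bases lie above 0, among them Tmsb10 at 0.32, and Actn1 at -0.73 is the 1 gene beyond a dashed line.

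Promoters were compared as a sequence feature that no rule used. RefSeq start sites (GRCm38.p6, from 250 bases before to 50 after the start, both strands searched) were found for 40 of the 47 genes. The CArG box, the site class bound by serum response factor, which is known to drive many actin genes, was found in 3 of them (Actg1, Arpc4 and Vcl), or 7.50%, beside 1.76% of protein-coding genes and 1.77% of genes at 10 TPM or more. By windows it was in 6.00% of those of the group and 1.63% of all 32851. The GC box GGGCGG was in 32 of 40 (80.0%), beside 70.3% of genes at 10 TPM or more, and the ETS-type motif GGAAGT was in 21 (52.5%), beside 38.3%. TATAAA was in 1 of the 40 (Cdc42), or 2.50%, beside 9.38%. A gene can have more than 1 window, and a match is a description of letters, not of binding.

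Reads of some genes could not be assigned to them with certainty. Expected counts differed from a whole number by more than 0.005 in either library for 10 of the 47 (Actb, Actg1, Cfl1, Tmsb10, Actr3, Arpc1b, Arpc4, Capza1, Tpm3 and Tpm4). How many of all genes have such counts was not computed, so the 10 are a description only. By whole gene spans in GENCODE M21, introns included, 27 genes overlap a gene on the opposite strand. The share over all genes was not computed, and the counting itself used GENCODE M4. Counterparts held most relative to the member at Rac1 (above), at Vcl with Ap3m1 (31.1% and 33.8%), at Cyfip1 with Nipa2 (31.7% and 32.5%), at Arpc1b with Pdap1 (above) and at Coro1b with Rps6kb2 (11.4% and 14.3%). These percents use all counts of the counterpart and not those in the overlap, which at Coro1b with Rps6kb2 is 45 bases. Whether strand was used in counting was not given in the sources used here, so reads of the overlapping parts cannot be told apart.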

How the data were processed

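The members, roles, pairs and lists were chosen with earlier results of these data known. Reads were mapped to mm10 with GENCODE M4, per the text deposited with each library; for the aligner, the quantifier and the use of strand, nothing is given in the sources used here. The authors deposited expected counts, TPM, FPKM, effective lengths and the percent of each gene's TPM per transcript, with no normalization of the counts. Summed expected counts were 42703213 and 50532821, with 37377787 and 44809299 in nuclear protein-coding genes. Symbols, types and coordinates came from GENCODE M21 by ID (42462 of 43346 mouse gene IDs matched). Expected counts were rounded and scaled by TMM in edgeR 4.0.16 over 12081 genes averaging at least 10 counts, and 1.5-fold was the threshold. On counts simulated for this comparison with counting error only (12107 genes), 97 of 100 genes changed 2-fold were past it. How many unchanged genes passed was not recorded. No p-value was computed, since 1 library stands on each side. The log2 ratios of pairs were computed with 0.1 TPM added. Copies were sought with BLAST 2.17.0. Floors use 3 counts; floors and intervals cover counting error only, since PCR copies are not marked by molecular identifiers. All members, genes in pairs, WAVE partners and the 8 highest other genes could be named, and transcripts of 20 listed genes and of genes whose leading transcript differed or was not coding. Complete coding transcripts were examined after the data were seen. Some items are not reported here by name and remain in the counts.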

Additional observations from a re-analysis of the deposited data

How the results depend on the processing

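The median level of the 47 genes (73.1 TPM) was 72.8 by posterior mean TPM, 288 when TPM was rescaled over nuclear protein-coding genes alone, which hold 24.0% and 26.8% of all TPM, 168 as FPKM and 62.4 from complete coding transcripts, and 68.4 to 77.9 with either library left out. The count at 100 TPM or more in both libraries (19) was 35 after that rescaling, 16 from complete coding transcripts, and 20 to 21 with either library left out. The count past 1.5-fold between libraries (1) was 1 with DESeq2 1.42.0 size factors, total counts, no filter on low counts, TPM ratios and complete coding transcripts, and 0 at 2-fold; leaving out a library was not possible there. Of the 43 pairs, the first gene was higher in 41, in 40 by expected counts not divided by length, and in 25 of the 27 pairs at 1 TPM or more on both sides. Only 2 pairs changed sign, Rac1/Rac2 by expected counts (-0.35) and Actn1/Actn4 with complete coding transcripts (0.24). The leading transcript was the same in 45 genes by either share, and in 44 of 46 among coding transcripts. The median share in protein-coding transcripts (96.7%) was 99.0% by expected counts and 96.0% to 97.1% with either library left out. Settings with complete coding transcripts or with shares of counts were added after seeing the data. No paired analysis was possible because there is 1 group.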
